A study of Rattus norvegicus with 20 samples.

Results

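The subject is the comparison of epididymal tissue from rats given resveratrol with the same tissue from untreated obese rats, over every gene that the arrays measured by itself. It rests on the 5 arrays titled resveratrol and the 5 titled obese, out of 20 in the study, and on 14557 genes whose probe set names 1 gene only. Of these genes, 7026 had a mean log2 signal above 3.1 over the 20 arrays and are called above background. The cut lies at the 95th percentile of the means of 1280 genes for smell, taste and pheromone receptors, taken as a background set (median 1.54). The remaining 7531 genes lay at or below it and are described apart. Kif21a and Vps37c were the genes nearest above the cut and Wdhd1 and Crtac1 the nearest below it, all at a mean of 3.1 after rounding.

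All animals were male ZDF rats, and the labels give their strain as Zucker. Obese animals of this line turn obese and diabetic through a defective leptin receptor. The genotype of the lean control animals is not given here. The groups were resveratrol, rosiglitazone, obese and lean control, with 5 arrays each. Lean control animals received standard chow and obese ones a stock diet over 6 weeks, and all lived in a reversed cycle with 12 h of light and 12 h of dark. No title says that the treated animals were obese, which is assumed here. The sources used here do not state the dose, route or length of treatment, or what treated animals ate. Each array received 100 ng of RNA and is a biological replicate by its title, while no label ties replicate numbers across groups. P-values therefore measure the spread between these arrays.

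Resveratrol is a plant polyphenol studied for its action on SIRT1, a deacetylase that depends on NAD+, and on AMPK, the kinase that senses low cellular energy. Through these it is held to raise mitochondrial biogenesis and fatty acid oxidation, to restrain fatty acid synthesis and to dampen signalling by NF-kB, the main inflammatory transcription factor. In obese fat, adipocytes enlarge, macrophages gather and the release of adipokines, the hormones of fat, is altered. Rosiglitazone, the other compound of the study, is a ligand of PPARG, the master regulator of fat cell genes. Sirt1, Nampt, Fasn, Acaca, Lipe and Esr1 had no probe set naming them alone and were not analysed here.

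The labels give the tissue as epididymal, with no word on fat or epididymis. All 14 measured adipocyte markers lay above background, with a mean over the markers of 8.41 to 9.07 in resveratrol arrays and 8.54 to 8.84 in obese arrays. Of 17 measured markers of epididymal epithelium and sperm, 16 lay at or below background, with a mean of 1.57 to 1.70 in resveratrol arrays and 1.53 to 1.76 in obese arrays. Over all genes, 2 resveratrol arrays had a Spearman correlation of 0.964 to 0.971, 2 obese arrays 0.963 to 0.980, and a resveratrol with an obese array 0.961 to 0.976. The 3 ranges overlapped. On the first principal component, which held 34.1% of the variance over 20 arrays, resveratrol arrays averaged 0.81 and obese arrays -2.96, against 30.78 for rosiglitazone and -28.62 for lean control. Lean control replicate 3 lay apart from the other lean arrays, at 11.81 against -49.7 to -23.72. It enters the resveratrol comparison only through the shared estimate of spread. Values without it are given for overall counts and for genes that separate obese from lean control arrays, and not for each interval.

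No gene differed between resveratrol and obese arrays past the threshold. Of 14557 genes, 0 (0%) passed an adjusted p of 0.05 in limma, and the smallest adjusted p was 0.999. At an unadjusted p under 0.05 there were 410 genes (2.82%), of which 161 (1.11%) were higher and 249 (1.71%) lower with resveratrol. Among genes above background, 60 (0.854%) were higher and 125 (1.78%) lower at that unadjusted level. The 10 resveratrol and obese arrays fitted alone also gave 0 genes, with a smallest adjusted p of 0.342 and 693 genes (4.76%) at an unadjusted p under 0.05. Where nothing differs, a share of about 0.05 of genes reaches that level, and neither fit exceeded it.

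The size of change that the arrays exclude was read from the 95% interval of each log2 difference, where 1 log2 unit is a 2-fold change. Among the 7026 genes above background, 6903 (98.2%) had an interval lying wholly within 2-fold either way, and 5184 (73.8%) lay wholly within 1.5-fold. For the median gene the interval reached to 0.49 log2 units, or 1.40-fold, and for the 95th percentile to 0.83, or 1.78-fold. Looking at each direction by itself, a rise of 1.5-fold was excluded for 6054 genes (86.2%) and a fall of 1.5-fold for 6104 (86.9%). Genes at or below background gave 7447 of 7531 within 2-fold (98.9%) and 5935 within 1.5-fold (78.8%), but background signal compresses differences there, so these bounds are on the signal and not on the RNA. Whether it also compresses differences among the 4116 genes with a mean of 3.1 to 5 was not tested.

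The estimates themselves were small. The median absolute difference above background was 0.11 log2 units and the 95th percentile 0.34. A total of 30 genes (0.427%) had an estimate of 1.5-fold or more and 2 of 2-fold or more. Positive differences made up 49.6% of all genes and 48.5% of genes above background, where the median difference was -0.01.

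Brighter genes were bounded about as tightly as dimmer ones up to a mean of 9. Within 2-fold lay 98.4% of the 4116 genes with a mean of 3.1 to 5, 98.3% of the 2349 genes from 5 to 7 and 97.3% of the 476 genes from 7 to 9. Of the 85 brightest genes, above 9, 68 (80.0%) were within 1.5-fold and 83 within 2-fold, and the widest interval there, that of leptin, reached 2.06-fold. The highest value on any array was 12.47. Whether signal near that top still follows the RNA in full was not tested, so these bounds too are on the signal. A bound on every gene at once is looser. With Bonferroni intervals over all 14557 genes, 1296 genes above background (18.4%) were within 2-fold and 6799 (96.8%) within 4-fold, which leaves 227 genes without even that bound.

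**Figure D1:**
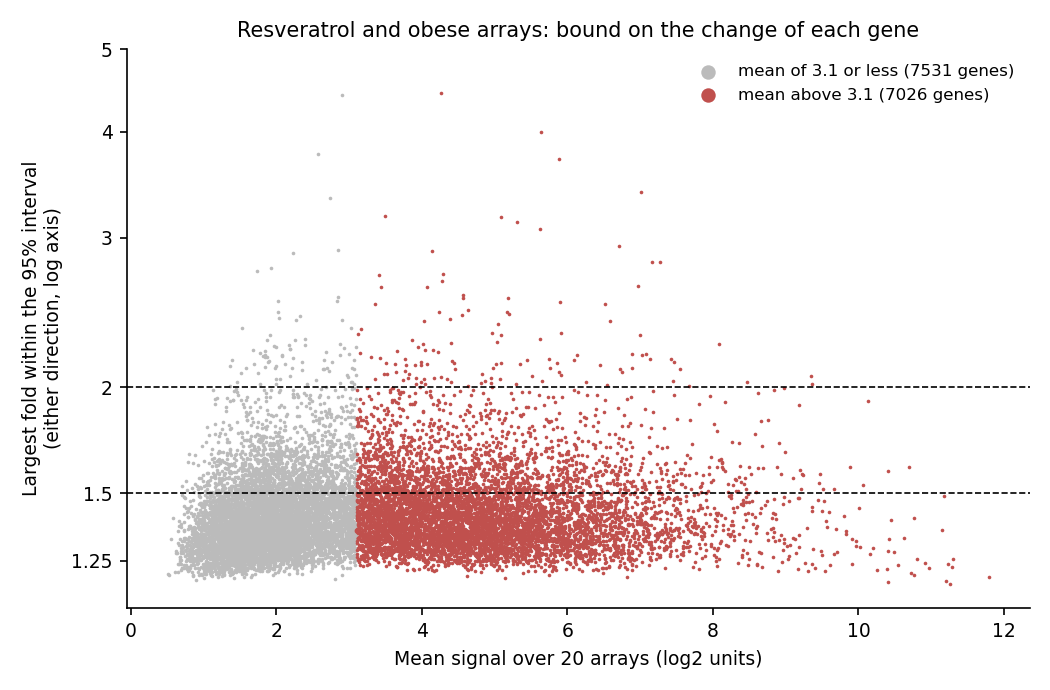
Each dot is a gene. The horizontal axis gives its mean log2 signal over 20 arrays and the vertical axis, on a log scale, the largest fold change in either direction that its 95% interval for resveratrol minus obese still holds. Dashed lines mark 1.5-fold and 2-fold; of the 7026 genes above a mean of 3.1, 6903 lie under the 2-fold line.

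For 123 genes above background (1.75%) a 2-fold change was not excluded. A rise of that size remained possible for 72 and a fall for 55, with 4 genes in both counts. The width of these intervals depends on which groups share the estimate of spread. The median within-group SD of genes above background was 0.24 in resveratrol arrays, 0.22 in obese, 0.23 in rosiglitazone and 0.36 in lean control arrays. Fitting the 10 resveratrol and obese arrays alone gave 54 genes without a 2-fold bound, and 71 of the 123 were bounded there. Leaving out lean control replicate 3 alone gave 6939 genes within 2-fold (98.8%) and 5548 within 1.5-fold (79.0%).

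Adipokine genes did not pass the test in either direction. Adipoq, which encodes adiponectin, an insulin-sensitising hormone, gave 11.06, 11.04, 11.01, 10.98 and 11.05 in resveratrol arrays, against 10.94, 10.92, 10.95, 11.07 and 10.96 in obese arrays. The groups overlapped through 1 obese array. The difference of 0.06 ± 0.11 (SE) had an interval of -0.17 to 0.29, which excluded a change of the signal beyond 1.22-fold. Lep, the satiety hormone leptin, gave 10.14, 10.38, 10.41, 10.11 and 9.46 in resveratrol arrays, against 9.65, 9.75, 9.72, 9.76 and 10.12 in obese arrays. Of the resveratrol arrays, 3 lay above every obese array, 1 within their range and 1 below all of them, and the interval of the difference, -0.45 to 1.05, left a 2.06-fold rise possible. In the fit of the 10 resveratrol and obese arrays alone the interval was -0.062 to 0.655, within 2-fold. Retn, which encodes resistin, an adipokine tied to insulin resistance in rodents, ranged from 6.01 to 8.04 in resveratrol arrays and from 6.41 to 7.25 in obese arrays, with a difference of 0.49 ± 0.31. Cfd, which encodes adipsin, a complement protease made by fat cells, was lower by 0.23 ± 0.20. Of 13 adipokine genes above background, 12 differences were positive with a median of 0.12, and 10 were bounded within 2-fold. That median was 0.25 without resveratrol replicate 5 and 0.06 without obese replicate 1.

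No measured gene of the sirtuin and AMPK axis passed the test. Of 32 genes listed, 23 were measured, and Sirt1, Sirt2, Nampt, Stk11 and Camkk2 were among the others. The values are of RNA signal, and enzyme activity was not measured. Of 20 genes of this axis and of mitochondrial biogenesis above background, 10 were higher and 10 lower, the median difference was 0.01, and all 20 were bounded within 2-fold and 16 within 1.5-fold. The 2 catalytic subunits of AMPK lay at opposite ends of the list. Prkaa2, the alpha-2 subunit, gave 5.09, 5.54, 5.71, 5.37 and 4.93 in resveratrol arrays, against 4.66, 4.99, 5.15, 4.82 and 5.50 in obese arrays, a difference of 0.30 ± 0.25. Prkaa1, the alpha-1 subunit, gave 5.97, 6.01, 5.82, 5.81 and 5.70 in resveratrol arrays, against 5.81, 6.26, 6.53, 5.92 and 6.07 in obese arrays, a difference of -0.26 ± 0.15. Both genes overlapped between the groups. Tfam, which maintains mitochondrial DNA, differed by 0.06 with an interval of -0.26 to 0.38, which excludes a 1.5-fold change either way. Sirt3, the main mitochondrial sirtuin, and Ppargc1a, the coactivator that drives mitochondrial biogenesis, averaged 2.13 and 1.89 in resveratrol arrays and 2.14 and 1.83 in obese arrays. Both lay below the background cut in both groups, so their differences of -0.01 and 0.06 say little about the RNA.

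No gene of the mitochondrial lists passed the test. In the tricarboxylic acid cycle and pyruvate list, 18 of 19 genes had a positive difference, with a median of 0.16, beside 48.5% positive and a median of -0.01 over all genes above background. The highest was Dlat, a subunit of the pyruvate dehydrogenase complex, which gave 5.36, 6.10, 5.93, 5.77 and 5.33 in resveratrol arrays, against 4.96, 5.27, 5.48, 5.26 and 5.63 in obese arrays, a difference of 0.38 ± 0.24. The lowest was Pdk4, the kinase that switches that complex off, at -0.10 ± 0.37. Resveratrol replicate 2 carried the highest mean of this list, 7.13, against 6.58 to 6.88 in the other resveratrol arrays and 6.48 to 6.90 in obese arrays. Without it the median was 0.10, and without resveratrol replicate 5 it was 0.23.

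Fatty acid oxidation genes had a median difference of 0.09 over 23 genes, 20 of them positive. All 23 were bounded within 2-fold and 18 within 1.5-fold. Cpt1b, which takes long-chain fatty acids into mitochondria, ranged from 4.4 to 5.32 in resveratrol arrays and from 4.50 to 4.91 in obese arrays, a difference of 0.26 ± 0.22. Without resveratrol replicate 2 the median of this list was 0.00. Oxidative phosphorylation genes had a median of 0.09 over 36 genes, with 25 positive and 11 negative, all 36 bounded within 2-fold and 24 within 1.5-fold. Their ends were Cox6c at 0.31 ± 0.18 and Cox7b at -0.20 ± 0.18, which are both small subunits of cytochrome c oxidase. The median of that list was 0.03 without resveratrol replicate 2 and 0.17 without resveratrol replicate 5.

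The fatty acid synthesis list was loosely bounded. Of 13 genes above background, 12 differences were positive with a median of 0.16, only 2 genes were bounded within 1.5-fold, and 3 were not bounded within 2-fold. Me1, the cytosolic malic enzyme that makes NADPH for fatty acid synthesis, gave 7.19, 7.02, 7.02, 7.29 and 6.99 in resveratrol arrays, against 6.31, 6.20, 6.34, 6.22 and 6.67 in obese arrays. Every resveratrol array lay above every obese array, as held for 12 genes above background (0.171%), a count not tested against chance. The difference was 0.75 ± 0.36, or 1.68-fold, with an interval of 0.01 to 1.49, an unadjusted p of 0.0469 and an adjusted p of 0.999.

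The Me1 result turned on which arrays set its spread. Its SD was 0.13 in resveratrol arrays and 0.19 in obese arrays, against 0.58 in rosiglitazone and 1.21 in lean control arrays. With the 10 resveratrol and obese arrays alone, the same difference had an interval of 0.47 to 1.03 and an unadjusted p of 2.35e-05, and the adjusted p of 0.342 still missed the threshold. Me1 was not alone in this. In that fit the intervals of Scd (0.142 to 0.723), Hmox1 (0.203 to 0.845) and Oxtr (0.354 to 1.445), described below, lay above 0. Over all 20 arrays their intervals crossed 0. Their adjusted p with the 10 arrays was 0.979 in limma.

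Other lipogenic genes overlapped between the groups. Scd, the desaturase that makes monounsaturated fatty acids, gave 10.26, 10.48, 10, 10.37 and 10.49 in resveratrol arrays, against 9.82, 9.78, 9.98, 9.71 and 10.15 in obese arrays. Only the lowest resveratrol array lay within the obese range, and the difference was 0.43 ± 0.25 with an interval of -0.08 to 0.95. Elovl6, an elongase of long-chain fatty acids, gave 5.47, 5.85, 5.84, 5.93 and 6.05 in resveratrol arrays, against 5.56, 5.45, 5.20, 4.52 and 5.65 in obese arrays. Obese replicate 4 was the lowest, and the difference of 0.55 ± 0.38 left a 2.52-fold rise possible. With the 10 resveratrol and obese arrays alone its interval was 0.151 to 0.949, within 2-fold, and its adjusted p in limma was 0.979. Srebf1, the transcription factor over many of these genes, differed by -0.06 ± 0.31. Thrsp, a lipogenic nuclear protein and one of the brightest genes on the arrays, averaged 11.20 in resveratrol arrays and 10.88 in obese arrays, with an unadjusted p of 0.0166. The median of the list ran from 0.10 without obese replicate 4 to 0.30 without obese replicate 5.

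Cholesterol synthesis genes had a median difference of 0.19 over 11 genes, 10 of them positive and 10 bounded within 2-fold. Nsdhl, which removes a methyl group from the sterol ring, ranged from 4.08 to 4.65 in resveratrol arrays and from 3.46 to 4.32 in obese arrays, a difference of 0.51 ± 0.26. Sqle, the squalene epoxidase of the same pathway, differed by -0.05 ± 0.21. No gene of the list passed the test.

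No gene of the lipid droplet or of fatty acid uptake passed the test. Fabp4, the fatty acid carrier of adipocytes, gave 11.32, 11.17, 11.38, 11.28 and 11.26 in resveratrol arrays, against 11.22, 11.33, 11.37, 11.27 and 11.16 in obese arrays. The groups covered nearly the same range, and the interval of -0.22 to 0.24 excluded any change of the signal beyond 1.18-fold. Cd36, the fatty acid translocase, had an interval of -0.28 to 0.24, and Plin1, the coat protein of the adipocyte lipid droplet, one of -0.38 to 0.31. Of 14 uptake genes, 13 were bounded within 2-fold, with a median of 0.10. Of 11 genes of triglyceride synthesis and the droplet, 10 were bounded, with a median of 0.12 that was 0.01 without resveratrol replicate 2. Gpd1, which makes the glycerol backbone of triglyceride, gave 8.99, 9.95, 9.25, 8.99 and 9.16 in resveratrol arrays, against 8.0, 8.91, 9.05, 9.11 and 9.28 in obese arrays, a difference of 0.40 ± 0.29. One high resveratrol array and 1 low obese array stand out in it.

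Lipolysis genes had a median of -0.12 over 9 genes, all bounded within 2-fold. Pnpla2, the lipase of the first step, differed by -0.12 with an interval of -0.41 to 0.16, which excludes a 1.5-fold change. G0s2, its inhibitor, ranged from 5.27 to 6.60 in resveratrol arrays and from 6.14 to 7.18 in obese arrays, a difference of -0.46 ± 0.25. Among 23 PPAR targets above background, which share members with the lists above, the median was 0.06 and 22 were bounded within 2-fold, with Me1 the exception. Ucp1, the uncoupling protein of brown fat, averaged 1.38 in resveratrol arrays and 1.35 in obese arrays, below background in both.

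In the list for insulin action and glucose uptake, 17 genes above background had a median of -0.03 and all were bounded within 2-fold. Slc2a4, which encodes GLUT4, the insulin-responsive glucose transporter, gave 3.73, 4.08, 3.54, 3.70 and 3.30 in resveratrol arrays, against 3.09, 3.28, 3.33, 2.90 and 3.39 in obese arrays. The ranges touched at 1 resveratrol array, and the difference was 0.47 ± 0.22, with an unadjusted p of 0.0399 and an adjusted p of 0.999. Several of these arrays lie close to the background cut. Irs1, the adaptor that links the insulin receptor to its kinases, differed by -0.32 ± 0.29, and Insr, the receptor, by -0.08 with an interval of -0.43 to 0.28.

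**Figure D2:**
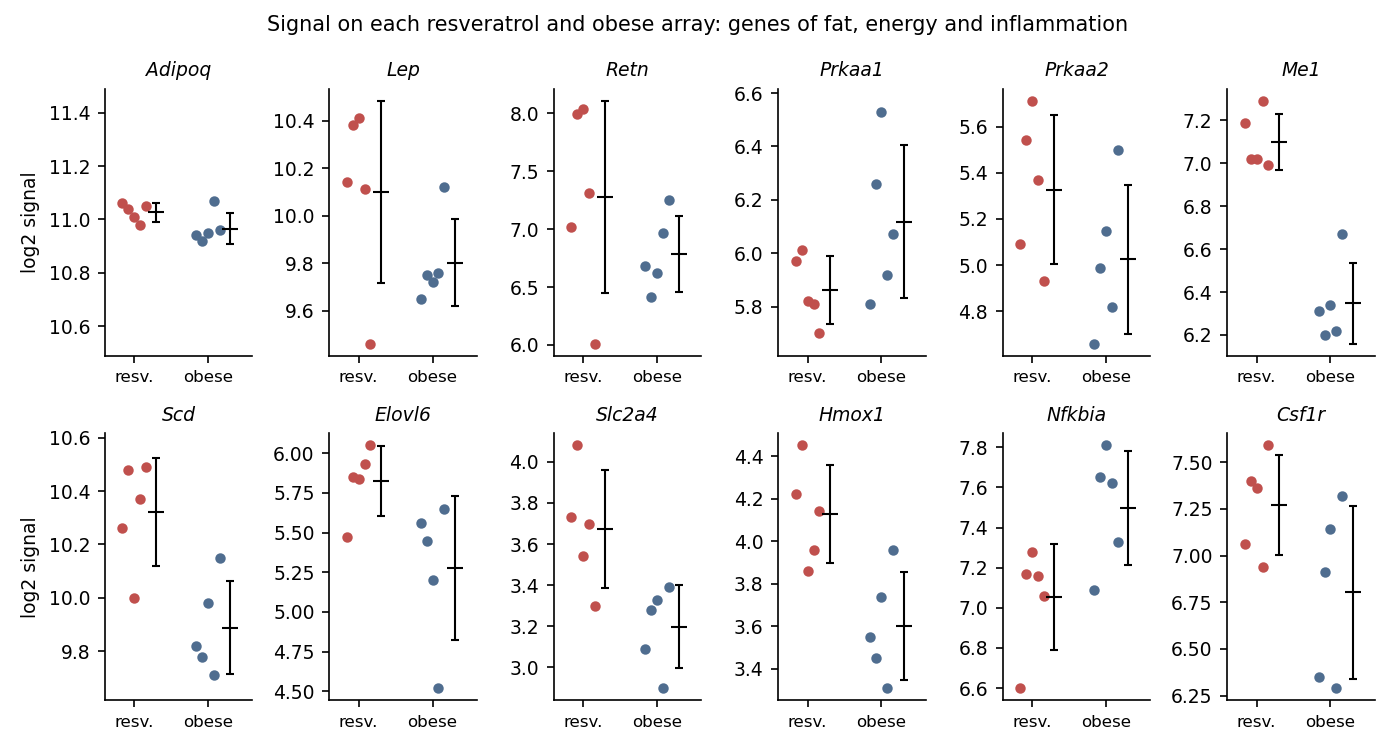
Log2 signal on each array for 12 genes, with resveratrol on the left and obese on the right of every panel; dots are arrays and the dash with bars is the mean ± SD of 5 arrays. Vertical axes differ between panels and do not start at 0. Me1 is the panel without overlap, with resveratrol arrays from 6.99 to 7.29 and obese arrays from 6.20 to 6.67.

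Of 15 NF-kB and inflammatory genes above background, 11 differences were negative, the median was -0.07, and all 15 were bounded within 2-fold and 7 within 1.5-fold. Nfkbia, the inhibitor that NF-kB itself induces, gave 6.60, 7.17, 7.28, 7.16 and 7.06 in resveratrol arrays, against 7.09, 7.65, 7.81, 7.62 and 7.33 in obese arrays. Only obese replicate 1 lay within the resveratrol range, and the difference was -0.45 ± 0.17, or 1.36-fold lower, with an unadjusted p of 0.0170. Ccl2, the monocyte chemokine, differed by 0.17 ± 0.39, and its interval of -0.64 to 0.98 gave the loosest bound of the list. The cytokine genes Tnf and Il6 averaged 2.29 and 2.04 in resveratrol arrays and 2.40 and 2.13 in obese arrays, below background in both groups. Of the measured list, 15 of 30 genes lay at or below background, so those genes carry no bound on the RNA.

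Antioxidant genes under NRF2, the transcription factor of the oxidative stress response, had a median of 0.14 over 23 genes, with 17 positive and 21 bounded within 2-fold. Hmox1, heme oxygenase, gave 4.22, 4.45, 3.86, 3.96 and 4.14 in resveratrol arrays, against 3.55, 3.45, 3.74, 3.31 and 3.96 in obese arrays, a difference of 0.52 ± 0.26 with an interval of -0.01 to 1.05. Obese replicate 5 alone reached the resveratrol range. Sod2, the mitochondrial superoxide dismutase, gave 7.28, 6.80, 6.43, 6.54 and 6.28 in resveratrol arrays, against 5.85, 6.31, 6.42, 6.20 and 6.58 in obese arrays, a difference of 0.39 ± 0.19 with an unadjusted p of 0.0471. The arrays of Sod2 overlapped widely. Gpx3, the secreted glutathione peroxidase, differed by -0.33 ± 0.18, and Nqo1, a quinone reductase that NRF2 and the aryl hydrocarbon receptor both induce, by 0.34 ± 0.25.

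Resveratrol is also known to bind the aryl hydrocarbon receptor and the estrogen receptors. No estrogen receptor gene could be bounded here, since Esr1 was not analysed and Esr2 lay below background with a mean of 1.83, and the 6 genes measured above background in that list are the coactivators Ncoa1, Ncoa2 and Ncoa3 and the responsive genes Myc, Igfbp4 and Xbp1. All 4 aryl hydrocarbon receptor genes and all 6 genes of the estrogen receptor list above background were bounded within 2-fold, with medians of 0.06 and -0.07. Cyp1b1, a target of the aryl hydrocarbon receptor, averaged 3.1 in resveratrol arrays and 2.92 in obese arrays, close to the background cut.

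Autophagy and mTOR genes had a median of -0.10 over 16 genes, or -0.03 with the signal SD of each array as a covariate. Of the 16, 14 lay within 1.5-fold. The exception at 2-fold was Ddit4, a stress-induced inhibitor of mTOR, which gave 3.55, 3.91, 4.14, 3.63 and 3.92 in resveratrol arrays, against 3.88, 4.37, 4.87, 4.81 and 4.25 in obese arrays. Obese replicate 1 alone lay within the resveratrol range, and the difference was -0.61 ± 0.20, or 1.52-fold lower, with an unadjusted p of 0.00526.

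Clock genes did not pass the test, and Dbp and Bmal1 spread widely within both groups. Of 11 measured, 10 differences were negative with a median of -0.17, and 3 genes were not bounded within 2-fold. Dbp, an output gene of the clock, gave 5.82, 7.86, 7.73, 5.08 and 6.36 in resveratrol arrays, against 5.37, 6.61, 8.17, 8.08 and 6.43 in obese arrays, and its interval of -1.76 to 1.04 allowed a 3.40-fold fall. Bmal1, the core activator whose rhythm runs opposite to that of Dbp, gave 5.44, 3.63, 4.10, 5.84 and 5.04 in resveratrol arrays, against 5.66, 4.20, 3.91, 3.35 and 5.29 in obese arrays. In both groups the arrays with low Dbp had high Bmal1. The hour of collection is not given in the sources used here. Stress and immediate early genes had a median of -0.02 over 13 genes, and Dusp1, a phosphatase induced within minutes of stress, differed by -0.30 ± 0.26.

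**Figure D3:**
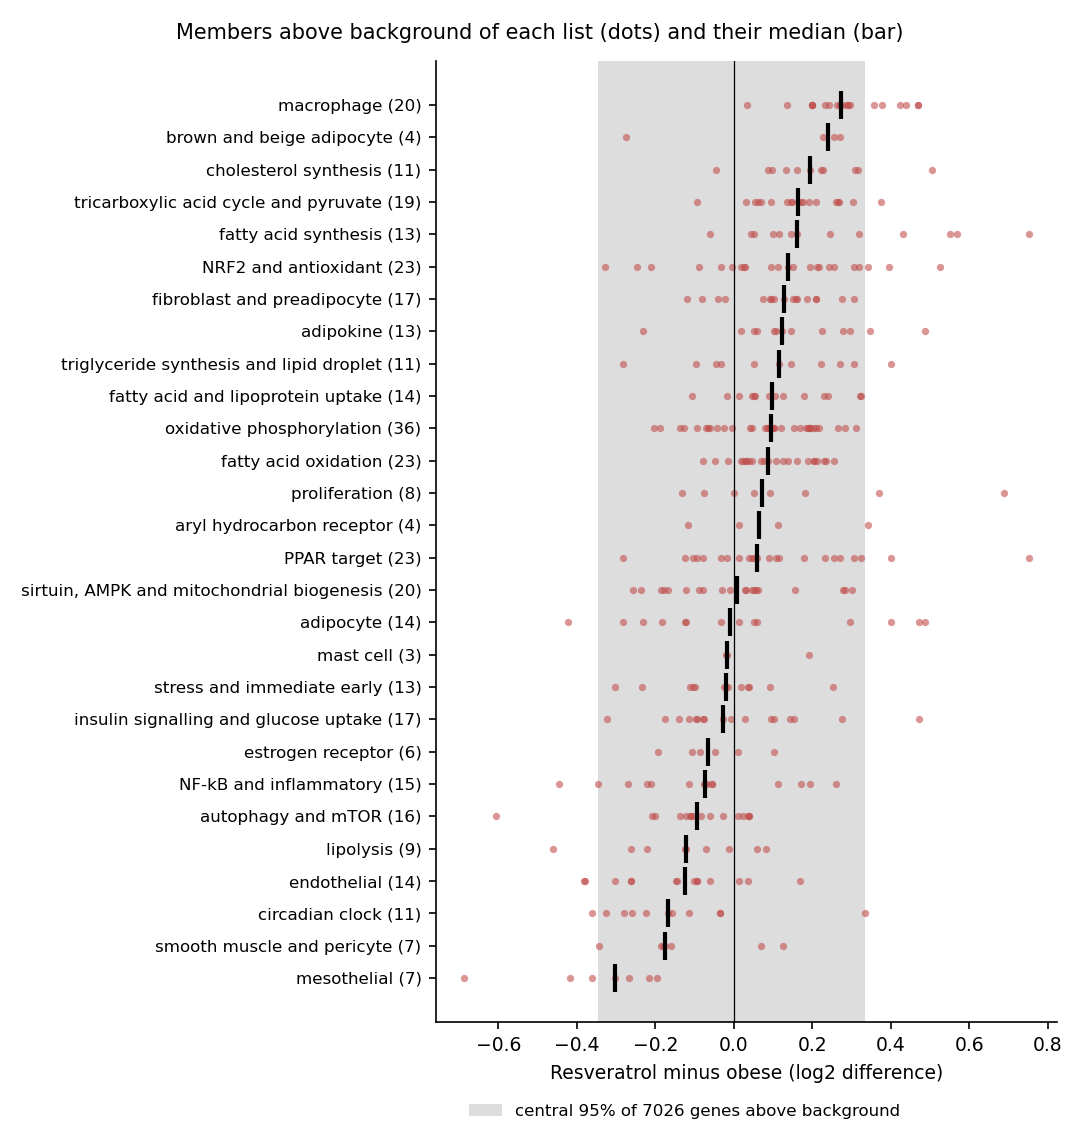
Each row is a gene or marker list with at least 3 members above background, with their number in parentheses; dots are the members' log2 differences, resveratrol minus obese, and the black bar is their median. The grey band, from -0.35 to 0.34, holds the central 95% of all 7026 genes above background. Macrophage markers, with a median of 0.27, are at the top and mesothelial markers, at -0.30, at the bottom; no gene shown passed the test.

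Across the 35 lists, which were described by their counts and without a test of the list, 492 different genes were measured. Of these, 363 lay above background, and 338 of the 363 were bounded within 2-fold. That is a smaller share than the 98.2% over all 7026 genes above background. None passed the adjusted threshold, as for all genes (0%).

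Markers of the cell types that fat can hold leaned in different directions, and none passed the test. In bulk tissue, fewer cells of a type and less RNA per cell cannot be told apart. All 20 macrophage markers had a positive difference, with a median of 0.27, against 48.5% positive and a median of -0.01 over all genes above background. Their mean was 6.40, 6.87, 6.45, 6.19 and 6.90 in resveratrol arrays, against 6.17, 6.26, 6.53, 5.95 and 6.46 in obese arrays. Resveratrol replicates 2 and 5 lay above every obese array and the other 3 within their range. The median was 0.16 without resveratrol replicate 5 and 0.39 without resveratrol replicate 4. Csf1r, the growth factor receptor of macrophages, gave 7.06, 7.40, 7.36, 6.94 and 7.59 in resveratrol arrays, against 6.35, 6.91, 7.14, 6.29 and 7.32 in obese arrays, a difference of 0.47 ± 0.29. Cd68, a lysosomal protein of macrophages, differed by 0.28 ± 0.41, and Cd14, a coreceptor for bacterial lipid, by 0.03 ± 0.22. Of the 20 markers, 6 were not bounded within 2-fold, the widest being Gpnmb, a glycoprotein of lipid-laden macrophages, whose interval reached 2.81-fold.

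All 7 mesothelial markers above background had a negative difference, with a median of -0.30. Mesothelium is the sheet of cells that lines the fat pad. Lrrn4, one of its surface proteins, gave 4.71, 5.28, 3.60, 4.53 and 4.72 in resveratrol arrays, against 5.25, 4.65, 5.90, 4.90 and 5.57 in obese arrays, a difference of -0.69 ± 0.30 with an unadjusted p of 0.0285. The mean of the 9 measured markers was 3.84 to 4.71 in resveratrol arrays and 4.24 to 5.26 in obese arrays, and the groups overlapped. Without obese replicate 3 the median was -0.10, and without resveratrol replicate 2 it was -0.44.

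Endothelial markers had a median of -0.12 over 14 genes, 11 of them negative, and all were bounded within 2-fold. Erg, a transcription factor of endothelial cells, gave 5.99, 6.13, 6.15, 6.16 and 5.70 in resveratrol arrays, against 6.17, 6.48, 6.38, 6.60 and 6.43 in obese arrays. Every resveratrol array lay below every obese array, as held for 31 genes above background (0.441%), a count not tested against chance. The difference was -0.38 ± 0.17 with an unadjusted p of 0.0296. Cdh5, the cadherin of endothelial junctions, averaged 8.47 ± 0.15 in resveratrol arrays and 8.73 ± 0.15 in obese arrays (SD, n = 5 each), with an interval of -0.59 to 0.06. The list's median was -0.22 without resveratrol replicate 1 and -0.03 without resveratrol replicate 5.

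Adipocyte markers themselves were balanced, with 7 of 14 positive and a median of -0.01 that was -0.10 after quantile normalization and 0.02 with the signal SD of each array as a covariate. Fibroblast and preadipocyte markers had a median of 0.13 over 17 genes, all within 2-fold, and smooth muscle and pericyte markers one of -0.18 over 7. Measured B cell and neutrophil markers all lay at or below background. Of the T and NK cell markers, 13 of 15 did so, and the others were Cd4, which rat macrophages also carry, and Il7r, an interleukin receptor chain. The part that cell content has in the metabolic values above was not tested.

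Among genes above background, the 5 higher and 5 lower with the smallest p-values differed by 1.38- to 1.78-fold, and none passed the adjusted threshold. Among higher genes these were Cyp2d1, C8h19orf38, Pgls, Zbtb11 and Gpx7. Cyp2d1, a drug-metabolising cytochrome P450, gave 4.54, 4.77, 5.01, 4.70 and 5.02 in resveratrol arrays, against 4.24, 4.37, 4.17, 3.86 and 3.90 in obese arrays. The groups did not overlap, and the difference was 0.70 ± 0.20, with an unadjusted p of 0.00136 and an adjusted p of 0.999. Rat Cyp2d genes are near copies of each other, and a probe set can take signal from several. Pgls, an enzyme of the pentose phosphate pathway, which also makes NADPH, gave 3.86, 3.76, 3.35, 3.55 and 3.30 in resveratrol arrays, against 3.07, 3.37, 2.69, 3.28 and 3.04 in obese arrays, a difference of 0.47 ± 0.16.

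Among lower genes the smallest p-values were those of LOC100911266, Mas1l, Zbed3, Pln and Zfp709l1. LOC100911266, an uncharacterised locus, differed by -0.83 ± 0.21 with an unadjusted p of 0.000628 and an adjusted p of 0.999. Zbed3, a zinc finger protein that binds axin in Wnt signalling, gave 3.56, 3.52, 3.47, 3.28 and 3.52 in resveratrol arrays, against 3.84, 4.26, 3.98, 3.81 and 4.48 in obese arrays. The groups did not overlap, and the difference was -0.61 ± 0.17. Pln, which encodes phospholamban, the brake on the calcium pump of muscle, gave 4.14, 3.58, 4.59, 4.31 and 3.37 in resveratrol arrays, against 4.4, 4.59, 4.88, 5.05 and 4.76 in obese arrays, a difference of -0.74 ± 0.22. Of the resveratrol arrays, 4 lay below all obese arrays.

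The highest estimates above background were those of Oxtr, Grifin, Lilrb4, Me1 and Chi3l1. Me1, described above, and Lilrb4 did not overlap between the groups, and the other 3 did. Oxtr, the oxytocin receptor, gave 6.03, 7.26, 6.11, 6.33 and 6.47 in resveratrol arrays, against 5.06, 5.21, 5.58, 5.28 and 6.55 in obese arrays. One obese array lay in the resveratrol range, and the difference of 0.90 ± 0.53 had an interval of -0.20 to 2.0. Grifin, a galectin-related protein first described in lens, differed by 0.86 ± 0.39, with the same obese array, replicate 5, highest of its group. Chi3l1, a chitinase-like protein of activated macrophages, gave 6.40, 4.27, 3.89, 4.58 and 4.37 in resveratrol arrays, against 3.91, 3.56, 4.10, 3.91 and 4.34 in obese arrays, so its difference of 0.74 ± 0.33 rested largely on 1 array. Lilrb4, an inhibitory receptor of myeloid cells, gave 5.14, 4.57, 4.82, 4.47 and 5.22 in resveratrol arrays, against 4.08, 4.19, 4.16, 3.76 and 4.25 in obese arrays, without overlap and with a difference of 0.75 ± 0.34.

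The lowest estimate above background was that of Zim1, an imprinted zinc finger gene, which gave 2.73, 2.77, 3.40, 2.99 and 3.59 in resveratrol arrays, against 3.45, 4.10, 5.10, 5.31 and 3.73 in obese arrays. Its difference of -1.25 ± 0.44, or 2.37-fold lower, had the largest bound of any gene above background, a 4.44-fold fall. Fmod, which encodes fibromodulin, a proteoglycan that binds collagen, gave 4.64, 6.13, 4.43, 5.64 and 5.60 in resveratrol arrays, against 6.15, 6.03, 7.06, 5.75 and 6.25 in obese arrays, a difference of -0.96 ± 0.32. RPL37-PS1 and Rpl28l1, copies of ribosomal protein genes, differed by -1.01 ± 0.32 and -0.84 ± 0.29. Signal of such copies cannot be told from that of their parent genes, so these values are uncertain.

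Among many genes some separate fully between groups by chance alone, so lack of overlap is no evidence of a change by itself. Groups that did not overlap were counted without a test against chance. There were 12 higher genes (0.171%) and 31 lower genes (0.441%) among the 7026 above background. The higher ones with the largest differences were Lilrb4, Me1, Cyp2d1, C8h19orf38 and Taldo1. Taldo1, transaldolase of the pentose phosphate pathway, gave 7.02, 7.21, 6.84, 6.91 and 6.89 in resveratrol arrays, against 6.33, 6.32, 6.71, 6.28 and 6.71 in obese arrays, a difference of 0.50 ± 0.20. The lower ones were RPL37-PS1, Depp1, Zbed3, Tmem8b and Lgalsl. Depp1, a FOXO target that regulates autophagy, gave 5.86, 6.22, 5.91, 6.06 and 5.63 in resveratrol arrays, against 6.43, 6.84, 6.68, 6.77 and 6.28 in obese arrays, a difference of -0.67 ± 0.27.

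**Figure D4:**
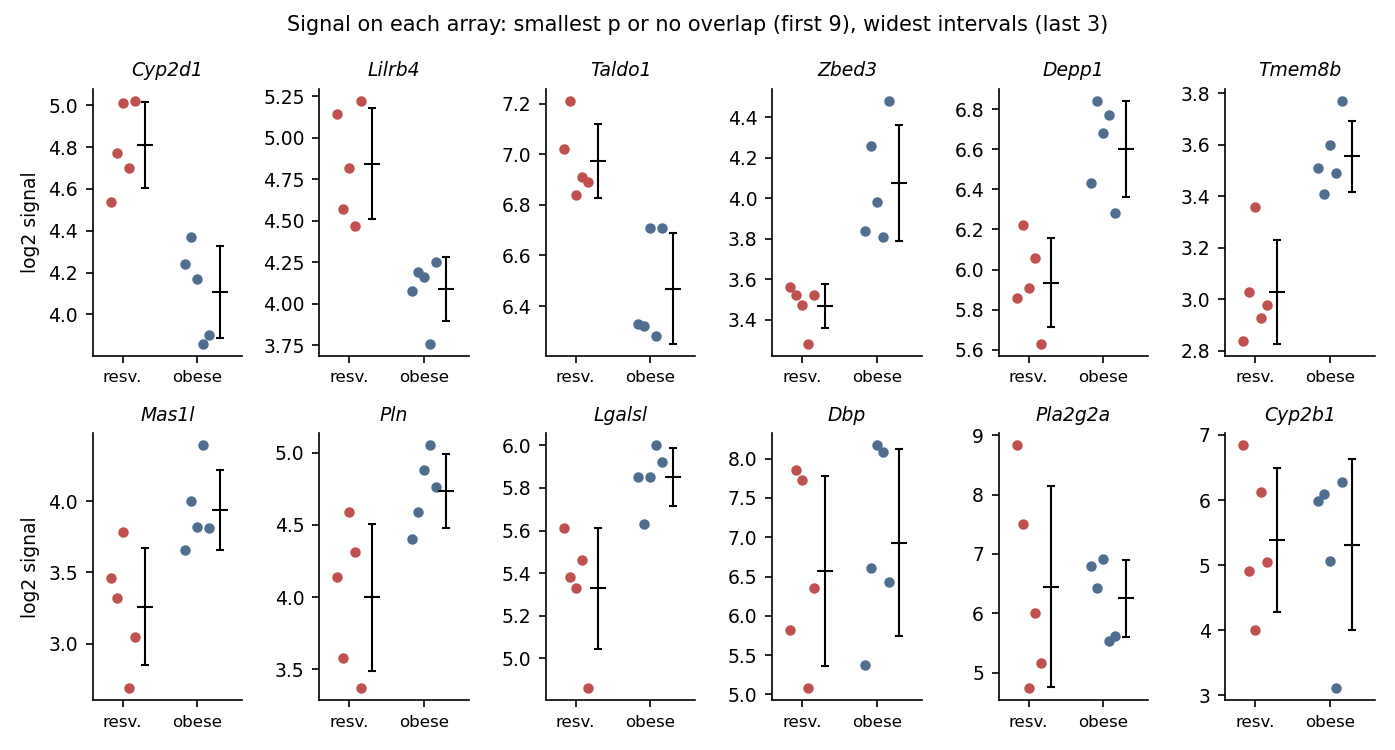
Log2 signal on each array, resveratrol on the left and obese on the right, for 9 genes with the smallest p-values or no overlap between the groups and, last in the lower row, 3 of the genes with the widest intervals. Dashes with bars are the mean ± SD of 5 arrays, and vertical axes differ between panels. Zbed3 and Depp1 lie lower on all 5 resveratrol arrays, while in Dbp, Pla2g2a and Cyp2b1 the arrays of each group spread widely and the groups overlap.

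The widest intervals belonged to Cyp2b1, Dbp, Pla2g2a, Plet1 and Oxtr. Cyp2b1, a cytochrome P450 inducible by drugs, gave 6.84, 4.91, 4.0, 6.13 and 5.04 in resveratrol arrays, against 5.99, 6.10, 5.07, 3.11 and 6.28 in obese arrays. Its difference was 0.07 ± 0.77, so neither a 3.13-fold rise nor a 2.84-fold fall was excluded. Pla2g2a, a secreted phospholipase of inflammation, gave 8.83, 7.50, 4.74, 6.00 and 5.17 in resveratrol arrays, against 6.79, 6.43, 6.91, 5.53 and 5.61 in obese arrays. For such genes 5 arrays a group do not bound the change within 2-fold.

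The rosiglitazone arrays show how many genes the same test calls in the other treated group. Doses and lengths of treatment are not given, so the counts do not rank the compounds. Against the same 5 obese arrays, 1117 genes above background passed the test with rosiglitazone (15.9%), of which 806 were higher (11.5%) and 311 lower (4.43%). The test of one compound against the other, rosiglitazone minus resveratrol, passed for 1100 of all 14557 genes (7.56%) and for 952 above background (13.5%), 720 higher (10.2%) and 232 lower (3.3%) with rosiglitazone. Both comparisons with obese share the obese arrays, so values are set side by side and the direct test is given. The genes described below were chosen for their large rosiglitazone difference from obese. The direct test uses the same rosiglitazone arrays, so its p-values at these genes are no independent check.

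Fabp3, the heart-type fatty acid carrier, gave 8.78, 8.79, 7.88, 8.91 and 8.64 in rosiglitazone arrays and 3.19, 4.74, 4.14, 3.92 and 3.49 in resveratrol arrays, against 3.44, 3.97, 3.83, 3.29 and 4.05 in obese arrays. Rosiglitazone arrays stood far above the others, while resveratrol and obese arrays overlapped. Its difference from obese was 4.89 ± 0.27 with rosiglitazone and 0.18 ± 0.27 with resveratrol, and rosiglitazone exceeded resveratrol by 4.71 ± 0.27 (adjusted p = 1.78e-11). Dsp, which encodes desmoplakin of cell junctions, differed from obese by 3.02 with rosiglitazone and -0.29 with resveratrol (difference between the compounds 3.31 ± 0.19, adjusted p = 1.78e-11). Alb, which encodes serum albumin, differed by 4.66 with rosiglitazone and -0.82 with resveratrol, and 1 obese array lay apart at 7.42.

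Me1 and Elovl6, which did not pass the test with resveratrol, were among the genes highest with rosiglitazone. Me1 gave 9.90, 10.11, 9.07, 9.92 and 8.83 in rosiglitazone arrays, a difference from obese of 3.22 ± 0.36 beside 0.75 ± 0.36 with resveratrol, and the compounds differed by 2.47 ± 0.36 (adjusted p = 6.43e-05). Elovl6 differed from obese by 2.97 ± 0.38 with rosiglitazone and 0.55 ± 0.38 with resveratrol, and the compounds differed by 2.42 ± 0.38 (adjusted p = 0.000142).

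At the genes that fell most with rosiglitazone, resveratrol and obese arrays lay together. Nnat, which encodes neuronatin, a small membrane protein of fat and brain, averaged 7.14 ± 0.87 in rosiglitazone arrays and 9.91 ± 0.29 in resveratrol arrays, against 10.23 ± 0.11 in obese arrays (SD, n = 5 each). C1qtnf9, an adipokine of the adiponectin family, averaged 2.59 ± 0.71 in rosiglitazone arrays and 5.60 ± 0.22 in resveratrol arrays, against 5.58 ± 0.34 in obese arrays. Its interval for resveratrol minus obese, -0.59 to 0.63, excludes a change of 2-fold either way. The same held for Col14a1, a fibril-associated collagen, for Ace, the angiotensin-converting enzyme, and for Cldn5, a claudin of endothelial junctions, with differences of 0.08, -0.17 and 0.01 from obese with resveratrol. At each of these 5 genes rosiglitazone was lower than resveratrol, with adjusted p from 1.94e-07 to 1.56e-06 in limma. They were chosen for their fall with rosiglitazone, so small p-values follow in part from that choice.

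**Figure D5:**
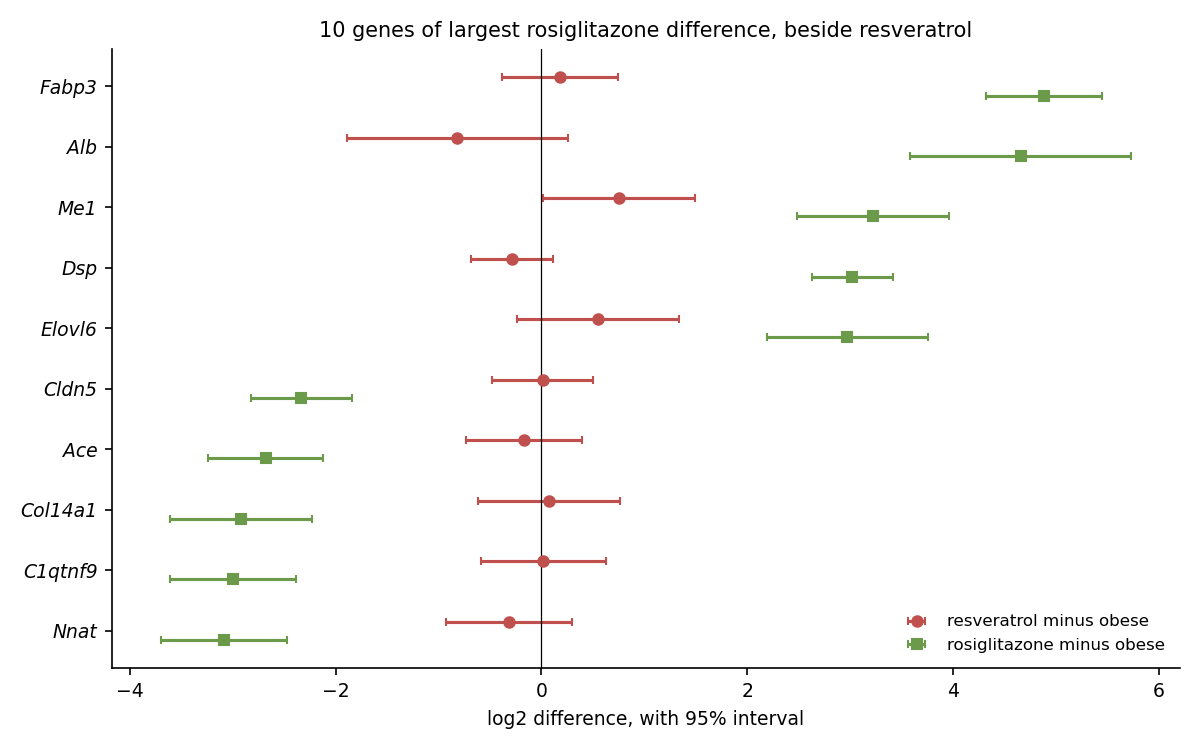
Log2 differences from obese with 95% intervals for the 5 highest and 5 lowest genes called in the rosiglitazone comparison; red circles are resveratrol minus obese and green squares rosiglitazone minus obese, and both use the same obese arrays. Of the 10 resveratrol intervals, that of Me1 (0.01 to 1.49) lies just above 0 and the other 9 cross it.

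The genes that most separate obese from lean control arrays are given with their resveratrol values. They were chosen on the obese and lean control arrays, and both comparisons use the same lean control arrays, so the resveratrol minus lean control values are no independent check of them. Obese and lean control differed at 105 of 14557 genes (0.721%), and resveratrol and lean control at 383 (2.63%). Above background these were 96 genes (1.37%), with 82 higher in obese arrays (1.17%), and 326 genes (4.64%), with 286 higher (4.07%) and 40 lower (0.569%) in resveratrol arrays. Both counts over all genes depend on lean control replicate 3, and without it they were 1856 (12.7%) and 2073 (14.2%). The resveratrol count was 11 with the signal SD of each array as a covariate and 133 without resveratrol replicate 2. Gpnmb gave 7.51, 8.80, 8.26, 7.82 and 9.32 in resveratrol arrays and 7.84, 7.83, 8.23, 7.76 and 7.72 in obese arrays, against 5.59, 4.90, 7.92, 4.68 and 4.42 in lean control arrays. Lean control replicate 3 alone reached the level of the obese arrays. Resveratrol exceeded lean control by 2.84 ± 0.50 (adjusted p = 0.0051), and by 3.45 ± 0.39 (adjusted p = 3.48e-06) without that array.

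The other genes highest in obese over lean control were Mt2A, Plet1, Ccl9 and Olr1. Resveratrol minus obese was 0.09 for Mt2A, a metallothionein that binds metals, 0.11 for Plet1, a surface protein of progenitor and immune cells, 0.45 for Ccl9, a chemokine for myeloid cells, and 0.23 for Olr1, a receptor for oxidised lipoprotein. Against lean control the resveratrol arrays were higher by 3.04 for Mt2A, 3.30 for Plet1, 2.63 for Ccl9 and 2.39 for Olr1, with adjusted p from 0.00244 to 0.0095, and without lean control replicate 3 by 3.54, 3.90, 2.99 and 2.78 in the same order. The upper bounds of resveratrol minus obese at Gpnmb and these 4 genes all lay past 2-fold, so a rise of that size over obese was not excluded. In the fit of the 10 resveratrol and obese arrays alone, the upper bounds were 0.51 log2 units for Mt2A and 0.75 for Olr1, within 2-fold, and 1.01 to 1.34 for the other 3.

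Cbr1, a carbonyl reductase, averaged 5.72 ± 0.53 in resveratrol arrays and 5.82 ± 0.29 in obese arrays, against 7.81 ± 1.07 in lean control arrays (SD, n = 5 each). Slc1a3, a glutamate transporter, averaged 4.16 ± 0.35 in resveratrol arrays and 4.54 ± 0.32 in obese arrays, against 6.06 ± 0.66 in lean control arrays. Resveratrol fell by 2.09 ± 0.36 for Cbr1 against lean control and by 1.90 ± 0.24 for Slc1a3, with adjusted p of 0.00482 and 0.000287, and fell by 2.55 and by 2.17 without lean control replicate 3. Trhde, which breaks down thyrotropin-releasing hormone, Slc36a2, an amino acid transporter, and Gprin3, a partner of G proteins, were also lower in resveratrol than in lean control arrays. Their resveratrol minus obese differences were -0.04, 0.05 and -0.22, and those of all 5 genes were bounded within 2-fold.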

How the data were processed

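Log2 signal values for 36685 features on 20 arrays were used as the authors deposited them; they were made with RMA, per the submitters' processing notes, and the version is not given in the sources used here. Array medians ran from 2.50 to 2.74, no columns were identical, and precision is limited by how many arrays there were. Array annotation gave 14824 probe sets with 1 gene, 829 with several and 21032 features with none. Where several probe sets named a gene, as for 234 genes, the brightest stood for it.

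All 20 arrays entered a limma fit (version 3.58.1, R 4.3.3) with a mean for each group; variances were moderated, and p-values adjusted by Benjamini-Hochberg across 14557 genes. Errors of differences are the model's standard errors, and 95% intervals use its moderated t distribution. The procedure was tested on simulated data in which a gene had the same spread in every group. That test does not cover the wider spread of the lean control arrays. The comparison, gene lists and naming rule were chosen with earlier results of these data known. Named were a fixed set of genes; among genes above background, the 5 in each direction with the smallest p, the largest difference and the largest difference without overlap, the 5 widest intervals, the ends of each list, the 5 in each direction called for rosiglitazone and for obese against lean control, and the genes next to the cut. Thrsp was named outside this rule, after its values were seen. Alternatives covered the arrays fitted, scaling, variance model, replicate block, probe sets, background cut, confidence level and each array left out. Same-numbered resveratrol and obese arrays did not deviate together (correlations -0.14 to 0.04 over 5 pairs), so the numbers were not treated as pairs.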

Additional observations from a re-analysis of the deposited data

Results flagged for a closer look

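In 16 of 256 gene and group pairs (6.25%) among the genes named, 1 of 5 arrays lay apart from the other 4 by Dixon's test, and chance gives about 1 in 20. Of the 16, 5 fell in obese replicate 1. In resveratrol arrays these were Chi3l1 in replicate 1 at 6.40, with the other arrays from 3.89 to 4.58, Mt2A in replicate 1 at 7.25 (others 6.00 to 6.27), Gpd1 in replicate 2 at 9.95 (others 8.99 to 9.25), Dusp1 in replicate 5 at 5.98 (others 6.72 to 7.01) and Kcnj8 in replicate 5 at 5.21 (others 4.97 to 5.04). In obese replicate 1 they were low values of Plin1 at 9.81 (others 10.09 to 10.17), Cox7b at 5.41 (others 6.06 to 6.24), Gpd1 at 8.0 (others 8.91 to 9.28), Des at 4.51 (others 5.16 to 5.41) and Nnat at 10.05 (others 10.24 to 10.29). The remaining obese arrays gave S100b in replicate 2 at 8.28 (others 8.67 to 8.78), Gpnmb in replicate 3 at 8.23 (others 7.72 to 7.84), Cd14 in replicate 4 at 6.05 (others 6.67 to 6.77), Adipoq in replicate 4 at 11.07 (others 10.92 to 10.96), Lep in replicate 5 at 10.12 (others 9.65 to 9.76) and Grifin in replicate 5 at 5.97 (others 4.54 to 4.92).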

How the results depend on the processing

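The count of genes called between resveratrol and obese was 0 in limma under every alternative run, with a smallest adjusted p of 0.342 to 1 and 166 to 1228 genes at an unadjusted p under 0.05; the last of these tested all 36685 features, an alternative chosen after seeing the data. Genes above background bounded within 1.5-fold numbered 4572 to 4772 with 1 resveratrol or obese array left out in turn and 5118 to 5935 under the alternatives that kept the cut of 3.1. With a cut of 2.5, 73.1% were within 1.5-fold and 98.2% within 2-fold, and with a cut of 4, 75.1% and 98.2%. Replicate numbers do not pair the arrays; with the replicate block the counts were 0 called, 5223 within 1.5-fold and 6924 within 2-fold, 1099 genes for rosiglitazone minus resveratrol and 485 for resveratrol minus lean control.

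Rosiglitazone minus resveratrol gave 795 to 1178 genes with 1 array left out. Resveratrol minus lean control, 383 genes, gave 133 to 347 with 1 resveratrol or obese array left out (133, 178, 248 and 169 without resveratrol replicate 2, 3, 4 and 5), 11 with the signal SD of each array as a covariate and 2073 without lean control replicate 3, an array left out after seeing the data; the cause was not tested. Among 128 named genes the sign of the resveratrol difference held in every setting for 90 and turned in at least 1 for 38, and none of 2552 gene and setting pairs passed the threshold.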
